A study of Mus musculus with 10 samples.

Results

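The cells described here were picked by plasma cell marker genes among B and T cells from 5 spleens of BXD2 mice. BXD2 is a recombinant inbred strain with spontaneous autoantibodies. The name plasma cell did not hold for all of these cells, as given below. They were chosen on their RNA counts: a cell barcode with at least 200 genes and at most 10% mitochondrial UMIs (unique molecular identifiers, 1 per captured RNA molecule), at least 1 UMI of Jchain, no UMI of Cd3e, Cd3d or Cd3g, and at least 3 of the 5 genes Slpi, Prg2, Derl3, Sdc1 and Fkbp11 detected. Of 9356 cells that passed quality control, 150 (1.60%) met this gate: 10, 9 and 36 in the 3 mice of genotype BXD2-p19-/-, which lack the p19 subunit of interleukin 23, and 44 and 51 in the 2 of genotype BXD2-WT. Mice p19-/- 1, p19-/- 2, WT 1 and WT 2 were female and p19-/- 3 was male. The labels used here give no age, treatment, capture day or sort, so those cannot be told apart from genotype, and neither can sex for p19-/- 3. Each mouse gave 1 library of RNA 5' ends and 1 library of B cell receptor contigs, joined here by cell barcode.

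Plasma cells are the end stage of the B cell lineage. Under the transcription factors Blimp1 (Prdm1), Irf4 and Xbp1 they silence the B cell programme held by Pax5 and Bach2, leave the cell cycle and enlarge the endoplasmic reticulum (ER) so that most of their messenger RNA codes for antibody. Plasmablasts are their dividing precursors. In the spleen of BXD2 mice, germinal centres, where B cells mutate and select their receptors, form without immunization, and cells leaving them are one source of plasma cells. Interleukin 23 is a cytokine of myeloid cells that acts through T cells, and the study's title and design ask how its loss alters the germinal centre programme and IgG2b class switching.

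The RNA libraries held 7712457 to 18093053 UMIs, with a median of 3906 to 5252 UMIs per cell passing quality control. Germinal centre B-like cells (GC B-like below), the class used for comparison, numbered 2969: cells outside the gate with no Cd3 UMI, at least 2 of 4 B cell genes and at least 2 of 8 germinal centre genes, among them Rgs13, S1pr2, Mef2b, Gcsam, Nuggc, Fas and Bcl6. Il23a, which codes for p19, had 0 UMIs in the cells of all 5 mice and therefore checks no genotype label. Across libraries, 68 barcodes recurred, of which 1 was in the gate. All 150 gated barcodes were in the contig table of the same mouse, 146 had a productive heavy chain with an isotype, and the isotype read from RNA was the same in 143 of those 146. Gated cells held a median of 17224 UMIs and 2504 genes, against 9898 UMIs in GC B-like cells and 3636.5 in 3630 T cells. Levels below are CPM: UMIs of a gene per 1000000 non-immunoglobulin UMIs, summed over a mouse's cells of a class.

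The genes of the gate are given as a description, since they chose the cells. Jchain (chr5:88519809-88527897, GRCm38.p6), which joins IgA dimers and IgM pentamers, stood at 9832, 2890.4 and 20121 CPM in the p19-/- mice and at 46160.2 and 27487 CPM in the WT mice. Slpi (chr2:164354070-164356507), a secreted inhibitor of leukocyte proteases, stood at 551, 676 and 25040.0 CPM in p19-/- and 17844 and 22539 CPM in WT, so p19-/- 1 and p19-/- 2 were far below the other 3 mice. Prg2 (chr2:84980461-84983632), the major basic protein best known from eosinophils, followed at 60, 181 and 862 CPM against 500.5 and 1227 CPM. Derl3 (chr10:75893398-75895941), which moves misfolded protein out of the ER, spanned a narrower range, 256, 329 and 543 CPM in p19-/- and 514 and 448 CPM in WT. Sdc1 (chr12:8771396-8793716), the CD138 proteoglycan used to sort plasma cells, had at least 1 UMI in 40.0% of gated cells, and Fkbp11 (chr15:98724368-98728198), a peptidyl-prolyl isomerase of the ER, in 62.7%. The same shares were 0.370% and 0.202% of GC B-like cells and 0.248% of T cells for each, a cell type that should lack both. Slpi was not specific in this sense: 51.3% of GC B-like cells and 2.01% of T cells carried a UMI of it, against 95.3% of gated cells.

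The marker threshold ran through a continuum. The 391 cells with 2 of the 5 markers, just outside the gate, had a median of 1.11% of their UMIs from immunoglobulin genes, and 35 of them reached 10%. The 71 cells with exactly 3 markers had a median of 4.46%, and 32 of them reached 10%. The 79 cells with 4 or 5 markers had a median of 43.8%, and 75 of them reached 10%. Depth did not follow this order, with medians of 19218, 17901 and 16786 UMIs per cell. Conversely, 98 cells with at least 10% immunoglobulin UMIs were outside the gate, of which 39 had a Cd3 UMI, 5 had no Jchain and 54 had fewer than 3 markers, at a median of 5538 UMIs.

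Immunoglobulin load, the share of a cell's UMIs from heavy and light chain genes, was not used by the gate and separated the gated cells. The median over the 150 cells was 30.4%, with a range of 0.351% to 76.2%, against 1.12% in GC B-like cells. Under 10% lay 43 gated cells, 35 of them under 3%, and 14 cells lay between 5% and 15%, so the 10% line, chosen after these values were seen, marks a range and not a cell type. The 107 cells at or above it, called Ig-rich below, numbered 4, 4 and 29 in p19-/- (40%, 44.4% and 80.6% of their gated cells) and 33 and 37 in WT (75% and 72.5%). The load was therefore unevenly spread: p19-/- 1 and p19-/- 2 were mostly Ig-poor, and the other 3 mice mostly Ig-rich.

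**Figure D1:**
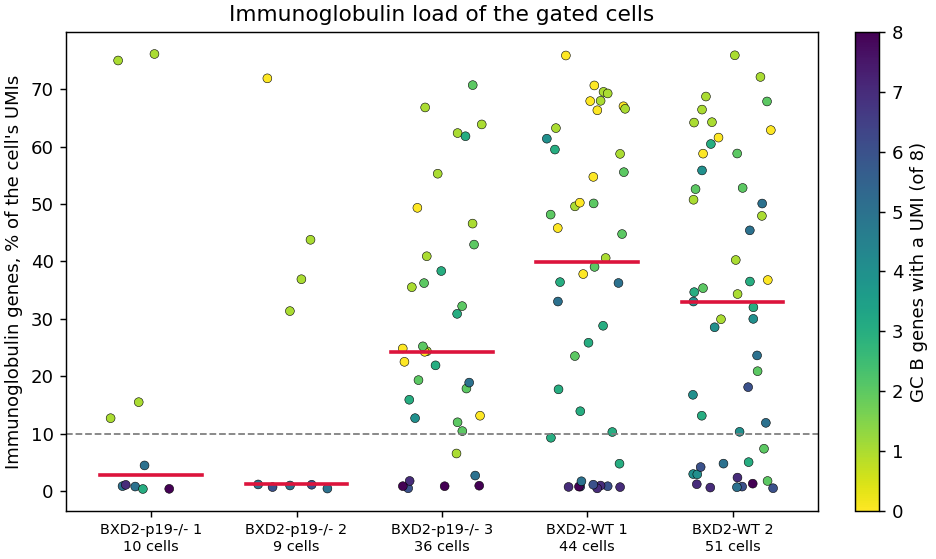
Share of UMIs from immunoglobulin genes (y axis, percent) in each of the 150 gated cells by mouse (x axis), coloured by how many of the 8 germinal centre genes the cell carried, with red bars at the mouse median and a dashed line at 10%. The medians were 2.76%, 1.14% and 24.3% in p19-/- mice and 39.8% and 33.0% in WT, and cells under the line carried a median of 6 of the 8 genes.

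The name plasma cell did not hold for all gated cells. The 43 Ig-poor cells carried a median of 6 of the 8 germinal centre genes and 14 of 16 S phase and mitosis genes, at 29450 UMIs and 4746 genes per cell, and Pax5, the factor that keeps B cell identity, was present in 28 of them. The 107 Ig-rich cells had no UMI of Pax5. That limits the share of cells with a UMI to 2.80% and not the share of cells that express it. Of the Ig-rich cells, 20 were cycling (at least 2 of the 16 cycle genes after thinning each cell to 1500 non-immunoglobulin UMIs), 84 were not, and 3 were too shallow to call. The cycling Ig-rich cells carried a median of 21.7% immunoglobulin UMIs, 2 germinal centre genes and 533 heavy-chain UMIs in the contig table. Their median of cycle genes before thinning was also 14. The non-cycling ones carried 49.5%, 1 germinal centre gene and 922 heavy-chain UMIs, against 34 heavy-chain UMIs in the Ig-poor cells. These gene counts were not thinned, and depth was unequal, at a median of 17004.5 UMIs in cycling and 14690 in non-cycling Ig-rich cells. Because both cuts are measured per cell, the levels that follow for these layers are descriptions pooled over cells of 5 mice.

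**Figure D2:**
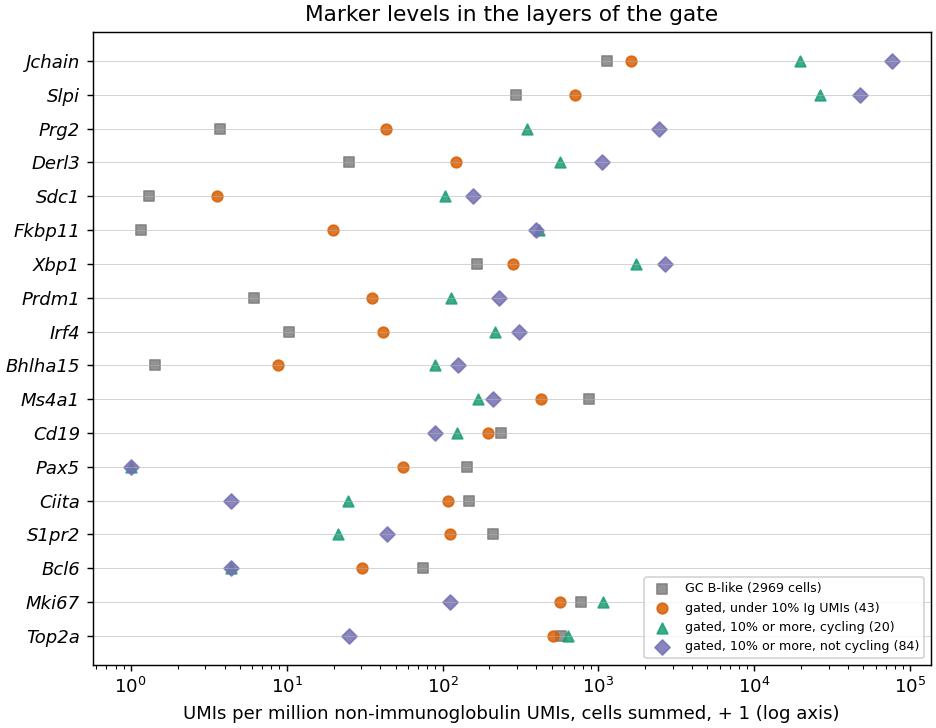
Level (x axis, CPM plus 1, log axis) of marker genes (y axis) in 4 layers of cells: 2969 GC B-like, 43 gated cells under 10% immunoglobulin UMIs, 20 Ig-rich cycling and 84 Ig-rich non-cycling cells. Pax5 ran from 142 to 55.2 to 0 and 0 CPM and Prdm1 from 5.21 to 34.5, 112 and 228 CPM across the layers.

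Several secretory and identity genes stood in a graded order over the layers. Prdm1 was at 5.21 CPM in GC B-like cells, 34.5 in Ig-poor gated cells, 112 in cycling Ig-rich cells and 228 CPM in non-cycling Ig-rich cells. Jchain followed the same order (1134, 1627, 19687 and 76846 CPM), as did Prg2 (2.73, 42.2, 348 and 2444 CPM). Not every gene did: Hsp90b1, the ER form of Hsp90, was at 313, 1232, 10544 and 9802 CPM, and Fkbp11 at 0.169, 19, 412 and 394 CPM, so both were already at their upper level in cycling cells. Mki67, a proliferation antigen, was at 1073 CPM in cycling Ig-rich cells, 771 CPM in GC B-like cells and 111 CPM in non-cycling Ig-rich cells. Surface genes differed in level between the 2 Ig-rich layers, with no test. Of the 20 cycling cells, 5 were IgM cells of 1 lineage in p19-/- 3, the IGHV14-2 lineage shown further on, so these layers also differ in mouse and clone. Ly6c2, a GPI-anchored antigen of the Ly6C locus, was found in 1 of 43 Ig-poor, 6 of 20 cycling and 34 of 84 non-cycling cells (0.862, 54.5 and 384 CPM), against 3.44% of T cells. Cd28, a costimulatory receptor of T cells and long-lived plasma cells, was found in 0 of 43, 8 of 20 and 4 of 84, with 64.1% of T cells carrying it. Tnfrsf17, which codes for the survival receptor BCMA, was found in 0, 1 and 17 cells. Itga4, the integrin chain that binds VCAM1, was at 123 CPM in cycling and 47.9 CPM in non-cycling Ig-rich cells, and the chemokine receptor Ccr10 at 54.5 and 20.5 CPM.

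Markers of T cells, granulocytes, plasmacytoid dendritic cells and erythroid cells were in part at 0 in the gate, and the sum of myeloid markers was higher in Ig-rich than in GC B-like cells. Of 10 T cell genes, 6 to 8 were at 0 per mouse and Cd8a, Cd8b1 and Thy1 at 0 in all 5 mice, for a summed level of 60.6 to 152 CPM against 134 to 163 CPM in GC B-like cells. Of 12 granulocyte genes, 10 to 12 were at 0, at most 7.90 CPM in sum, although Prg2 is known from eosinophils. Of 10 myeloid genes, 5 to 8 were at 0, including C1qa, C1qc, Tyrobp and Adgre1 in all 5 mice. Their sum was 209.5 to 727 CPM, and 706 to 1956 CPM in the Ig-rich cells, against 194 to 258 CPM in GC B-like cells. In the Ig-rich cells of p19-/- 1 that sum was Cst3 alone, a secreted protease inhibitor also made outside myeloid cells. Of 10 plasmacytoid dendritic cell genes, Siglech and Ccr9 were at 0 in all 5 mice, and of 7 erythroid genes 3 to 7 were at 0. Their part in the results was not tested.

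Against GC B-like cells of the same mouse, the gated cells showed the plasma cell programme in part, and the Ig-rich cells showed it with most genes of the B cell programme lower. This contrast uses the genes the gate used, so it is given as levels with no test, and nothing is read from the counts. Of 7161 genes with a mean of at least 10 CPM, 21 (0.293%) were at least 4-fold higher in gated cells in all 5 mice and 0 (0.0%) at least 4-fold lower. In Ig-rich cells, 145 (2.02%) were at least 4-fold higher and 118 (1.65%) at least 4-fold lower. The median log2 ratio over all genes was -0.18 for gated and -1.14 for Ig-rich cells. In Ig-rich cells, 689 of the 7161 genes (9.62%) were higher in all 5 mice by any amount and 2199 (30.7%) lower, and the counts of each group below stand beside these shares. Levels of Ig-rich cells in p19-/- 1 and p19-/- 2 come from 4 cells each, with 16363 and 16932 non-immunoglobulin UMIs, so that 1 UMI there is about 61.1 CPM. A gene with 0 UMIs there takes its log2 ratio from the pseudocount of 1 CPM. For low genes, the mean ratios and list medians below thus give a direction and not a reliable size.

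The transcription factors came first. Of 12 plasma cell factors, 8 were higher in Ig-rich than in GC B-like cells in all 5 mice, with a list median log2 ratio of 2.94. Prdm1 stood at 244, 413 and 173 CPM in the Ig-rich cells of the p19-/- mice and 197 and 193 CPM in WT, against 3.80 to 7.19 CPM in GC B-like cells, a mean log2 ratio of 5.23 (SD 0.59, n = 5 mice). Every mouse was well above its own GC B-like cells and the genotypes overlapped. Xbp1, which drives expansion of the ER, stood at 6784, 2776, 1960.1, 2938 and 2124 CPM against 146 to 185 CPM, a log2 ratio of 4.12. Irf4 stood at 367, 177, 295, 285 and 268 CPM, a log2 ratio of 4.66. Bhlha15, the Mist1 factor of professional secretory cells, had a log2 ratio of 6.53 and Creb3l2, a membrane-bound factor cleaved under secretory load, 6.39. Atf6, another membrane-bound stress sensor, had a ratio of 2.81, and Atf4, the factor of the integrated stress response, 0.56.

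The B cell programme was the mirror image, with 16 of 17 genes lower in Ig-rich cells in all 5 mice, 6 of them at least 4-fold, and a list median log2 ratio of -3.94. Pax5 was at 0 in the Ig-rich cells of all 5 mice and at 123 to 151 CPM in GC B-like cells. Bach2, which holds back Prdm1, was at 0, 0, 3.84, 24.6 and 5.21 CPM against 162 to 228 CPM. Bcl6, the master factor of the germinal centre, was at 4.92 CPM or less in all 5 mice, and Ciita, which switches on MHC class II, at 0 in the p19-/- mice and at 19.7 and 13.0 CPM in WT. Among the 15 lowest genes were also Spib, a B cell factor of the Ets family, Id3, an inhibitor of E proteins, Anxa2, a membrane-binding annexin, and Gcsam, a germinal centre signalling protein, with log2 ratios of -6.76, -6.67, -6.57 and -5.85. MHC class II was less uniform: 5 of 9 genes were lower in all 5 mice, H2-Aa had a log2 ratio of -1.80, and Cd74, the invariant chain, one of 0.06. Cd79a, the signalling chain of the B cell receptor, had a ratio of 0.77, so it was not lower than in GC B-like cells.

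Genes of the secretory pathway were among the highest. Of 22 ER chaperones and folding enzymes, 21 were higher in Ig-rich cells in all 5 mice and 17 of these at least 4-fold, with a list median log2 ratio of 3.22 (1.95 in all gated cells). Hspa5, the BiP chaperone that binds unfolded heavy chains, stood at 8678, 13111 and 4354 CPM in the p19-/- mice and 2121 and 4008 CPM in WT, against 248 to 320.4 CPM in GC B-like cells. Hsp90b1 stood at 15645, 28172, 11062, 6569 and 10106 CPM, a log2 ratio of 5.27. Both were highest in p19-/- 1 and p19-/- 2, where 4 cells give the value. Pdia4, a disulfide isomerase, had a log2 ratio of 5.97, Creld2, an ER-stress protein, 5.42, and Dnajc3, a BiP cochaperone, 4.36. Canx, the lectin chaperone calnexin, was the low end at 0.74. Of 19 translocon and signal peptide genes, 18 were higher in all 5 mice (median 2.58), among them Ssr4, a subunit of the translocon-associated complex, at 2933, 4016, 2984, 5605 and 3488 CPM. Mzb1, a BiP cofactor in IgM assembly, stood at 4584, 14292, 8546, 9655 and 7933 CPM against 747 to 928 CPM.

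The later steps were higher as well. Of 16 genes of ER-associated degradation and the unfolded protein response, 11 were higher in all 5 mice (median log2 ratio 2.98), with Edem1, which marks misfolded glycoproteins for disposal, at 4.72, Dnajb9, a BiP cochaperone, at 4.75 and Sel1l, a subunit of the degradation ligase, at 3.48. N-glycosylation had 11 of 16 (median 2.18). ER to Golgi transport had 17 of 20 (median 2.16), with the cargo receptor Lman1 at 917, 1358, 986, 753 and 960.4 CPM. Other high genes were Ckap4, an ER sheet protein, at a log2 ratio of 6.34, Isg20, an exonuclease, at 5.27 and Slc3a2, the heavy chain of amino acid transporters, at 3.79. The immediate early gene Jun had a ratio of 5.32 and Fos of 4.3, with Jun at 4767 and 1595 CPM in p19-/- 1 and p19-/- 2 and 346 to 497 CPM in the other 3 mice.

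**Figure D3:**
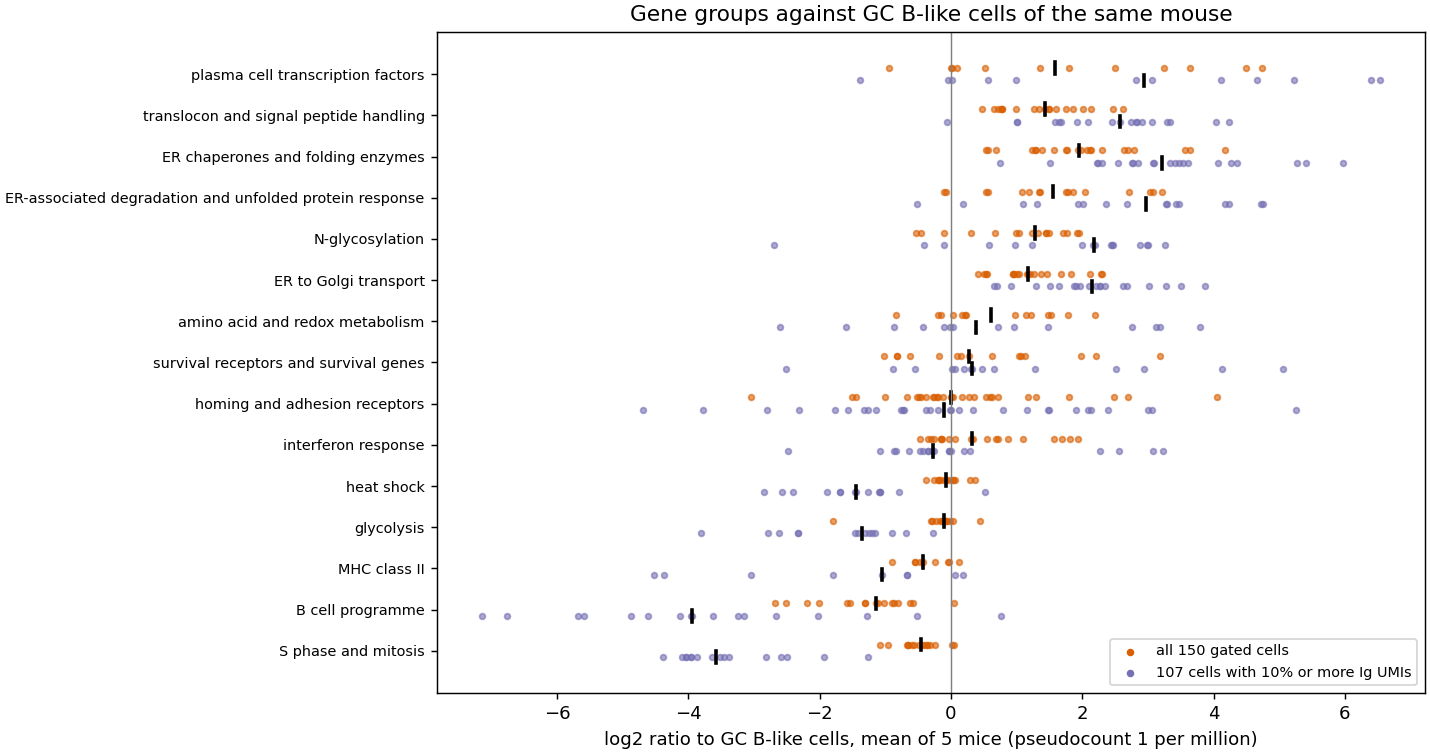
Log2 ratio to GC B-like cells of the same mouse, as the mean of 5 mice (x axis), of the genes of 15 groups (y axis), 1 point per gene, in all gated cells (orange) and Ig-rich cells (purple), with black bars at the median of the genes. ER chaperones had medians of 1.95 and 3.22, the B cell programme -1.14 and -3.94, and S phase and mitosis genes -0.46 and -3.58.

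The promoters of several of these genes carry the ER stress element, the sequence bound by Atf6 with NF-Y, and are shown because the chaperones stood higher as a group. The letters searched were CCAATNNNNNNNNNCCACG, on both strands, in 300 bases per gene (250 before and 50 after the start) of the RefSeq promoters on GRCm38.p6. The motif was in 39 of 32851 promoters (0.119%), or by gene in 37 of 27025 (0.137%). It was in 7 of the 18 chaperone genes with a promoter entry (38.9%): Hspa5, Hsp90b1, Calr, Canx, Pdia6, Dnajc3 and Creld2. It was also in Derl3 of the gate and in Syvn1, the ligase of ER-associated degradation. Of the 25 genes highest over GC B-like cells, 22 had an entry and 4 of them the motif, and of the 15 lowest, 13 had an entry and 0 the motif. The 7 chaperone genes with the motif had a median log2 ratio of 4.26 (0.74 to 5.42) and the 11 without it 2.84 (1.5 to 5.97), so the ranges overlapped. Each sequence below runs 5' to 3' on the strand of the motif, with its fixed ends in capitals. A match is a description of these letters.
Hspa5, chr2:34772005-34772063: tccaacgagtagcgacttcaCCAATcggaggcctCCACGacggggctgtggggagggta
Hsp90b1, chr10:86705513-86705571: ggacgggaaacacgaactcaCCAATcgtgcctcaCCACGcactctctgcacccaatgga
Hsp90b1, chr10:86705618-86705676: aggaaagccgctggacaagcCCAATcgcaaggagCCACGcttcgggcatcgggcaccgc
Creld2, chr15:88819500-88819558: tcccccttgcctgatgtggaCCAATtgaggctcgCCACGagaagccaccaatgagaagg
Dnajc3, chr14:118937807-118937865: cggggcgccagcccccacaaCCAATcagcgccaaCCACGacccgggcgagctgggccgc
Derl3, chr10:75893222-75893280: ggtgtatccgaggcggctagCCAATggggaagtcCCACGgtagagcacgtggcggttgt
In Hspa5 the motif lay 65 to 47 bases before the start of the gene, and in Derl3 156 to 138 bases before it. Hsp90b1 held 2 copies in opposite directions, 107 to 89 and 212 to 194 bases before its start.

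The remaining groups were lower or mixed, beside the 9.62% of all genes that were higher and 30.7% lower in all 5 mice. Of 16 S phase and mitosis genes, 15 were lower in Ig-rich cells in all 5 mice (median log2 ratio -3.58), with Top2a, the topoisomerase of chromosome segregation, at -1.93 and Mki67 at -1.27. Of 14 glycolysis genes, 11 were lower (median -1.36), and of 14 heat shock genes, the cytosolic chaperones, 8 were lower (median -1.45). Amino acid and redox genes had 6 of 14 higher (median 0.38). Among 15 survival genes, 4 were higher in all 5 mice. Tnfrsf17 stood at 61.1, 118, 3.84, 73.8 and 33.8 CPM, Tnfrsf13b, its relative TACI, had a log2 ratio of 0.02, and Mcl1, a Bcl2 family protein that plasma cells need, 0.31. Among 30 homing and adhesion receptors, 7 were higher and 5 lower in all 5 mice. Itga4 had a ratio of 2.13 and Cxcr4, the bone marrow homing receptor, -1.57, while Cd93 and Ccr9 had no UMI in the 107 Ig-rich cells. Of 20 interferon response genes 3 were higher in all 5 mice, and Ly6a (Sca-1), an interferon-induced surface antigen, stood at 733, 591, 2059.8, 2293 and 1936 CPM, a ratio of 2.39.

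The isotype of the contig was not a criterion of the gate, but its markers Slpi and Prg2 stood at different levels in IgG and IgM cells (below), so shares of gated cells are given beside those of cells chosen without the markers. Most gated cells were class switched. Of the 146 cells with an isotype, 56 were IgG1, 35 IgM, 19 IgG2b, 17 IgG2c, 11 IgG3, 6 IgA and 2 IgE. IgG1 made up 60%, 44.4% and 42.9% of gated p19-/- cells, mouse by mouse, and 34.9% and 32.7% of WT ones, against 53.2%, 35.4%, 35.5%, 26.4% and 27.8% of GC B-like cells. The gated share was higher than the GC B-like share in 5 of 5 mice, by 7.31 percentage points on average (SD 1.66, exact sign-flip permutation p = 0.0625, adjusted p over the 6 isotypes = 0.188, two-sided). That p is the smallest that 5 pairs can give, so no such comparison could pass 0.05. IgG2c went the other way, at 10.0%, 0%, 8.57%, 20.9% and 8.16% of gated cells against 15.8%, 32.1%, 13.5%, 32.7% and 28.6% of GC B-like cells, lower in 5 of 5 mice by 15 points on average (SD 11.4, exact permutation p = 0.0625, adjusted 0.188). In Ig-rich cells taken without the markers (at least 10% immunoglobulin UMIs and no Cd3 UMI, an alternative added after the data were seen), IgG2c was again lower in 5 of 5 mice, by 13.9 points on average (exact permutation p = 0.0625). For IgG1 the mean difference there was -7.16 points (exact permutation p = 0.312) and rested on p19-/- 1, where 2 of 10 cells (20%) were IgG1 against 53.5% of GC B-like cells. In the other 4 mice the shares were 37.5%, 34.9%, 24% and 26% against 35.1%, 35.5%, 26.5% and 27.5%, and without p19-/- 1 the mean difference was -0.56 points. In gated cells IgM, IgG2b, IgG3 and IgA differed by 7.74, -6.33, 3.67 and 2.43 points, with exact permutation p-values of 0.312, 0.188, 0.125 and 0.5. Without the markers, IgA was higher than in GC B-like cells in 5 of 5 mice, by 7.53 points on average (exact permutation p = 0.0625). That rests on the few IgA cells given below.

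**Figure D4:**
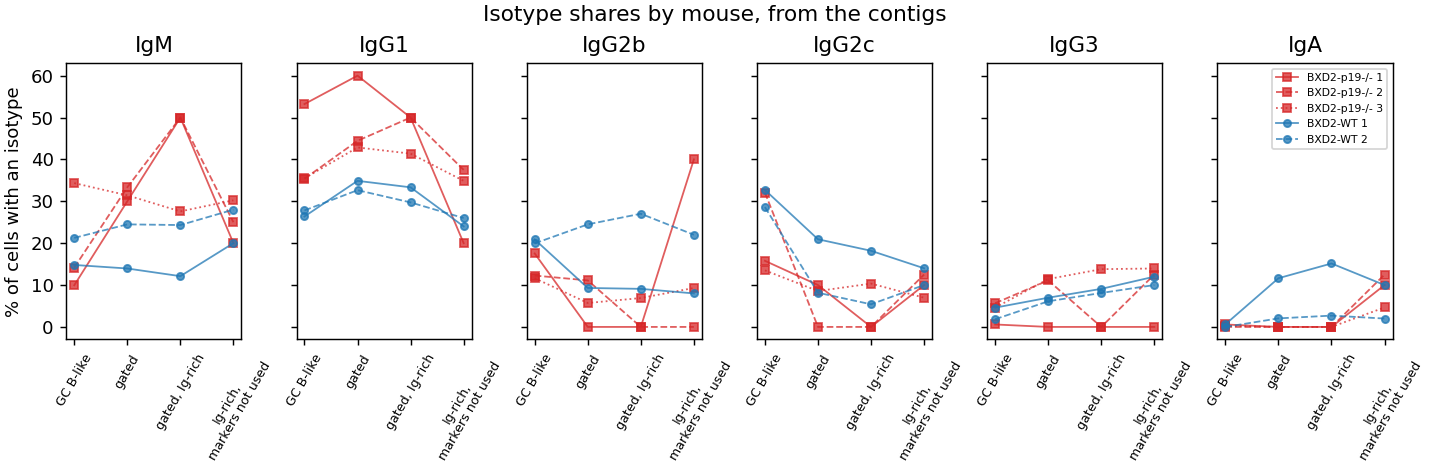
Share of cells with each of 6 isotypes (y axis, percent; 1 panel per isotype) in GC B-like cells, all gated cells, Ig-rich gated cells and Ig-rich cells chosen without the markers (x axis), 1 line per mouse, red squares for p19-/- and blue circles for WT. IgG2c was lower in gated than in GC B-like cells in all 5 mice, and IgA was 11.6% of gated cells in WT 1, 2.04% in WT 2 and 0% in the p19-/- mice.

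IgA cells stood apart. All 6 were in WT mice, 5 in WT 1 and 1 in WT 2, and all were Ig-rich, with a median load of 66.7% (36.3% to 70.7%) and 2929 heavy-chain UMIs. The other isotypes had gated medians of 29.9% for IgM, 31.1% for IgG1, 35.4% for IgG2b, 17.7% for IgG2c and 23.6% for IgG3, and the 2 IgE cells lay at 18.1% and 23.5%. Among Ig-rich cells the IgM median was 50.8% and the IgG medians were 29.9% to 40.3%. The 3 p19-/- mice had 0 IgA among 10, 9 and 35 gated cells, which allows shares of up to 30%, 33.3% and 8.57%. Chosen without the markers, Ig-rich cells did include IgA in every p19-/- mouse: 1 of 10, 1 of 8 and 2 of 43 cells, against 5 of 50 and 1 of 50 in WT. Only WT 1 had at least 5 IgA cells, so IgA was not tested against IgG. Light chains were nearly all kappa, with 2 lambda cells of 146.

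IgG and IgM cells were compared in edgeR's quasi-likelihood test with the mouse as a block, over p19-/- 3, WT 1 and WT 2, the mice with at least 5 cells of each kind. Among genes that neither define the isotype nor belong to the gate, Vpreb3, also found in GC B-like cells, was higher in IgG cells. Of 11 gated IgM cells of p19-/- 3, 8 were of the IGHV14-2 lineage, and 5 of these 8 were cycling Ig-rich cells. Of 12 in WT 2, 4 were of an IGHV1-47 lineage and 2 of an IGHV9-2 lineage. Isotype cannot be fully told apart from clone in these mice. In gated cells 12 of 3214 genes (0.373%) were called at an adjusted p under 0.05, 11 higher in IgG (0.342%) and 1 lower (0.0311%). Of these, 9 were immunoglobulin genes, with Ighg1 higher by 11.5 on the log2 scale, Ighg3 by 8.86 and Ighg2c by 6.65 and Ighm lower at -5.77, as the contigs label them. Slpi and Prg2 were also among the 12, but they chose the cells, so their levels in gated cells are a description. In Ig-rich cells chosen without the markers, 17 of 1986 genes (0.856%) were called, all higher in IgG: 11 immunoglobulin genes, Vpreb3, Prg2, Rgs1, Ltb, H2-Ob and the unnamed model Gm8369. In Ig-rich gated cells 54 of 2100 (2.57%) were called, 45 higher (2.14%) and 9 lower (0.429%).

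Vpreb3 (chr10:75943024-75949657) stood at 503, 884 and 624 CPM in the gated IgG cells of p19-/- 3, WT 1 and WT 2 and at 152, 244 and 53.5 CPM in their IgM cells, a log2 difference of 2.38 (SE 0.335, edgeR adjusted p = 0.0216). The groups did not overlap, and without p19-/- 3 the difference missed the threshold (2.67, edgeR adjusted p = 0.0792). In the cells chosen without the markers it stood at 522, 1390.4 and 917 CPM against 26.2, 161 and 29.0 CPM (4.14, SE 0.407, edgeR adjusted p = 0.000142). By cells, Vpreb3 was found in 84 of 103 IgG, 12 of 35 IgM and 5 of 6 IgA gated cells, and in 70 of 103 IgG and 5 of 41 IgM cells chosen without the markers. It was found in 72.6% of GC B-like and 0.716% of T cells. Among the other genes called in the cells without the markers, a UMI of Rgs1, a regulator of G protein signalling, was found in 31 of 103 IgG and 1 of 41 IgM cells, one of Ltb, the lymphotoxin beta chain, in 30 and 1, and one of H2-Ob, a chain of the class II modulator H2-O, in 62 and 7 (edgeR adjusted p = 0.00087, 0.00116 and 0.0452).

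Prg2 was tested in the cells chosen without the markers, where it stood at 1599, 1146 and 2858 CPM in IgG against 78.5, 269 and 378 CPM in IgM cells, a log2 difference of 3.18 (SE 0.411, edgeR adjusted p = 0.00103). In p19-/- 2, which was not in the fit, the order was the other way, 49.3 CPM in 5 IgG cells against 2549.9 CPM in 2 IgM cells. In gated cells Prg2 stood at 1292, 629.8 and 1722 CPM in IgG against 76.0, 115 and 238 CPM in IgM cells.

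Slpi was not called in the cells chosen without the markers, with a log2 difference of 4.25 (SE 1.32, edgeR adjusted p = 0.269) between 47685, 43561 and 53911 CPM in IgG and 2931, 4948 and 1375 CPM in IgM cells. In gated cells it stood at 37799, 23155 and 31915 CPM in IgG and at 1763, 1961 and 832 CPM in IgM cells. A single IgG cell of p19-/- 3 held 47.0% of that mouse's Slpi UMIs in gated IgG cells. In p19-/- 1 and p19-/- 2, which were not in the fit, gated Slpi was low in both: 609.8 and 944 CPM in 7 and 6 IgG cells against 382 and 91.0 CPM in 3 and 3 IgM cells. Within gated IgG the pooled level was 30946 CPM in IgG1, 33040 CPM in IgG2b, 7063 CPM in IgG2c and 8524 CPM in IgG3 cells, and it was 3320 CPM in IgA and 1118 CPM in IgM cells. Jchain had no fixed direction (25211 against 12569 CPM in p19-/- 3 and 28101 against 44368 CPM in WT 1).

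Genes just under the threshold in gated cells included Cybb, the NADPH oxidase subunit, at -1.65 (edgeR adjusted p = 0.108) and -3.22 (adjusted p = 3.24e-05) in Ig-rich gated cells, and Fut8, which adds core fucose to antibody glycans, at 1.34 (adjusted p = 0.129). Fscn1, an actin bundler, was at -1.60 (adjusted p = 0.179) and Fos at 0.92 (adjusted p = 0.222). With immunoglobulin genes left out of the fit, 4 of 3089 genes (0.129%) were called: Vpreb3, the gate genes Slpi and Prg2, and Cd79a at 1.45 (adjusted p = 0.0303), which was at 1.42 (adjusted p = 0.281) with them in.

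**Figure D5:**
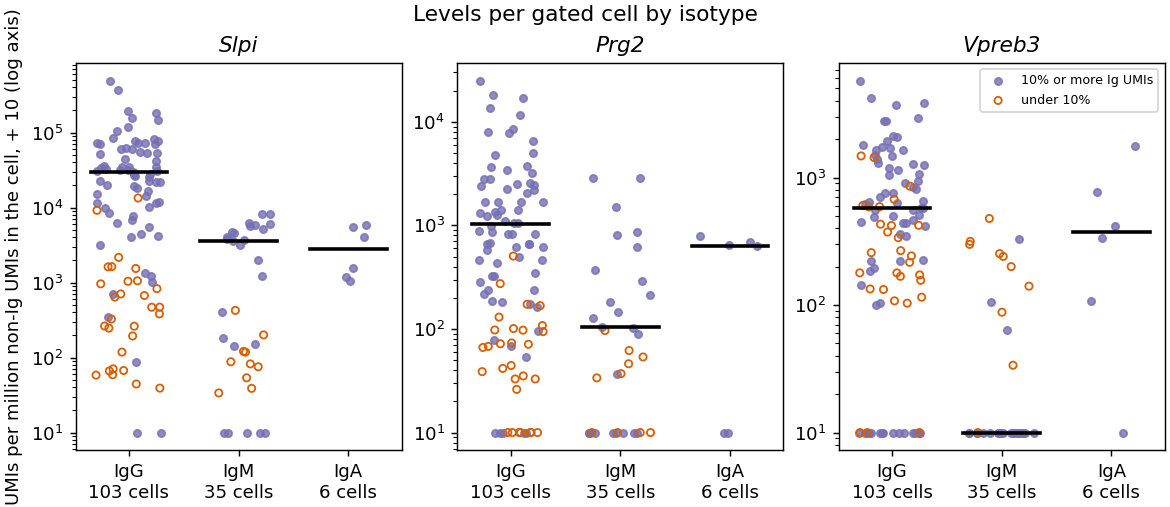
Slpi, Prg2 and Vpreb3 per gated cell (y axis, CPM plus 10, log axis) by isotype class (x axis; 103 IgG, 35 IgM and 6 IgA cells), with black bars at the median of the cells with at least 10% immunoglobulin UMIs. Slpi and Prg2 belong to the gate and are shown as a description, and a UMI of Vpreb3 was found in 84 of 103 IgG and 12 of 35 IgM cells.

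By heavy-chain sequence, gated cells had lineage relatives among the GC B-like cells. A lineage is here all cells of a mouse with the same heavy V and J genes and CDR3 length and CDR3s linked by at most 15% mismatches. Of 26 lineages with a gated cell and at least 1 other barcode, 22 held GC B-like cells, and 39 of 146 gated cells and 25 of 107 Ig-rich cells belonged to these. By mouse that was 0 of 10, 2 of 9 and 11 of 35 gated cells in p19-/- and 14 of 43 and 12 of 49 in WT. Of the 25 Ig-rich cells, 22 had the isotype of at least 1 GC B-like relative and 11 a CDR3 identical to one. The most used V genes were IGHV1-26, in 10 cells of 3 mice, and IGHV14-2, in 9 cells of 1 mouse. The CDR3 was 14.5 residues long on average against 14.3 in GC B-like cells (exact sign-flip permutation p = 0.188), and held 1.30 basic residues against 1.27 (exact permutation p = 1).

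The CDR3 sequences of 3 lineages are given because they place Ig-rich cells beside their germinal centre relatives. Each begins at the codon of the conserved cysteine, and capitals mark bases that differ from the most frequent CDR3 of the non-gated cells in that lineage. The germline sequence was not compared, so a capital does not say which of the 2 sequences carries the mutation. The largest, in p19-/- 3, used IGHV14-2 with IGHJ2 over 94 barcodes. It held 8 gated cells, 7 of them Ig-rich and all IgM, and 47 GC B-like cells, of which 39 were IgM. The 7 Ig-rich cells shared 1 difference from the most frequent CDR3. Of them, 5 had the second sequence, at 24.4% to 63.9% immunoglobulin UMIs, and 2 GC B-like cells had that sequence too.
IGHV14-2, most frequent, 4 cells: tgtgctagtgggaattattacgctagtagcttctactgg
IGHV14-2, 5 Ig-rich cells: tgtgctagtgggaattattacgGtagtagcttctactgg
IGHV14-2, 1 Ig-rich cell at 15.9%: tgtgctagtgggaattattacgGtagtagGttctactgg
IGHV14-2, 1 Ig-rich cell at 13.1%: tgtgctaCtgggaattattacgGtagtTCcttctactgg
The IGHV1-69 with IGHJ4 lineage of the same mouse (72 barcodes, 46 GC B-like: 37 IgM, 5 IgG1 and 3 IgG3) held Ig-rich cells of both IgM and IgG1. They differed from the most frequent CDR3 at different bases.
IGHV1-69, most frequent, 17 cells: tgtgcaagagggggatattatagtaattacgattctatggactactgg
IGHV1-69, IgM at 49.4%: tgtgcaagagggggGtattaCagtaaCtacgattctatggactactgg
IGHV1-69, IgG1 at 42.9%: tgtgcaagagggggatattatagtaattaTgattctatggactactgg
IGHV1-69, IgG1 at 35.5%: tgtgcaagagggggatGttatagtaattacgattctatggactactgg
In WT 1, an IgG2b cell of IGHV1-26 with IGHJ4 at 59.5% load had the CDR3 of 21 relatives unchanged, in a lineage of 49 GC B-like cells of which 23 were IgG2b, 24 IgG2c and 2 IgM.
IGHV1-26, IgG2b: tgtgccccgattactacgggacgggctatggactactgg

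By genotype, gated cells were a smaller share of the cells in all 3 p19-/- mice, but no share could be tested at 0.05, since 3 against 2 mice cannot give an exact permutation p below 0.2. Gated cells were 0.638% (95% exact binomial interval 0.306% to 1.17%), 0.946% (0.434% to 1.79%) and 1.53% (1.07% to 2.11%) of cells in p19-/- and 1.58% (1.15% to 2.11%) and 3.01% (2.25% to 3.94%) in WT. The means were 1.04% ± 0.453 (SD, n = 3) and 2.29% ± 1.02 (SD, n = 2; exact permutation p = 0.2, two-sided), and the gap between p19-/- 3 and WT 1 was within their counting intervals. Without WT 2 the difference fell from -1.26 to -0.539 points. Of B lineage cells they were 1.72%, 2.64% and 3.10% against 3.31% and 7.91% (exact permutation p = 0.2). Chosen by load without the markers, the share was 0.638%, 0.841% and 1.95% against 1.83% and 3.01%, so p19-/- 3 was then above WT 1 (exact permutation p = 0.4). The gate counts detected genes, so fewer such cells and less of their RNA per cell cannot be told apart in the gated share.

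IgG2b, the isotype in the study's title question, was 0 of 10, 1 of 9 and 2 of 35 gated cells in p19-/- and 4 of 43 and 12 of 49 in WT, which is 0%, 11.1%, 5.71%, 9.30% and 24.5%. The means were 5.61% ± 5.56 (SD, n = 3) and 16.9% ± 10.7 (SD, n = 2), with an exact permutation p of 0.4, adjusted to 0.6 over the 6 isotypes. WT 2 was highest (95% interval 13.3% to 38.9%), and WT 1 lay under p19-/- 2, so the groups overlapped. Without WT 2 the difference fell from -11.3 to -3.69 points. In Ig-rich cells chosen without the markers, IgG2b was 4 of 10, 0 of 8 and 4 of 43 in p19-/- against 4 of 50 and 11 of 50 in WT, and the difference of the means was 1.43 points (exact permutation p = 1). The 4 cells of p19-/- 1 decide that sign: without this mouse the difference was -10.3 points.

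The other isotype shares by genotype were likewise small counts. IgM was 30.0%, 33.3% and 31.4% of gated cells in p19-/- against 14% and 24.5% in WT, and IgG1 had means of 49.1% against 33.8%, each without overlap (exact permutation p = 0.2, adjusted 0.4). Without the markers IgM was 20%, 25% and 30.2% against 20% and 28%, which overlapped (exact permutation p = 1). IgA was 0% against 11.6% and 2.04% in gated cells (exact permutation p = 0.2), and 9.05% against 6.0% on average without the markers (exact permutation p = 0.6). Without WT 1 the difference in gated IgA fell from -6.83 to -2.04 points. Expanded clones (the authors' clonotype seen in more than 1 cell) made up 19.4% ± 17.3 of gated cells in p19-/- and 13.7% ± 0.063 in WT (exact permutation p = 0.8). Without p19-/- 2 that difference turned from 5.76 to -1.18 points.

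Cycling cells were 6 of 9, 4 of 8 and 16 of 35 gated cells in p19-/- (66.7%, 50% and 45.7%) and 13 of 44 and 18 of 51 in WT (29.5% and 35.3%). The groups did not overlap, with means of 54.1% ± 11.1 (SD, n = 3) and 32.4% ± 4.06 (SD, n = 2; exact permutation p = 0.2). Ig-poor cells were 6 of 10, 5 of 9 and 7 of 36 gated cells in p19-/- and 11 of 44 and 14 of 51 in WT. Their share was thus above WT in p19-/- 1 and p19-/- 2 but lowest of all in p19-/- 3. Of the 16 cycling cells of p19-/- 3, 9 were Ig-rich. Among Ig-rich cells alone, cycling cells were 1 of 3, 0 of 3 and 9 of 28 against 3 of 33 and 7 of 37, which overlapped (exact permutation p = 0.6). Cycling Ig-rich cells, the plasmablast range, thus numbered 20, of which 9 were in p19-/- 3. In all 5 mice gated cells cycled less than GC B-like cells, of which 61.4% to 73.2% cycled, by 21.9 points on average (SD 14.2), and by 48.6 points (SD 11.4) in Ig-rich cells (exact sign-flip permutation p = 0.0625 each). Median load by mouse averaged 9.41% ± 12.9 in p19-/- against 36.4% ± 4.82 in WT (exact permutation p = 0.2) over gated cells. The other sets are themselves chosen by load, so load is not compared in them.

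In the main fit of genotype in gated cells, no gene other than antibody genes passed. edgeR's quasi-likelihood test called 8 of 5648 genes (0.142%), all lower in p19-/- and all immunoglobulin genes: Igha, Ighe and the segments Igkv3-12, Igkv3-1, Igkv4-57, Ighv1-9, Ighv1-58 and Ighv1-81. Igha stood at 21.8, 19 and 46.6 CPM in p19-/- and 13749 and 1552 CPM in WT, a log2 difference of -8.06 (SE 1.03, edgeR adjusted p = 0.0446). All 6 IgA cells of the gate were in the WT mice and 1 of them held 25.3% of the Igha UMIs. In Ig-rich cells chosen without the markers its difference was -0.69 (adjusted p = 0.997). Ighe stood at 21.8, 4.76 and 15.5 CPM against 478 and 403 CPM (-4.99, SE 0.368, edgeR adjusted p = 0.00347), with 1 IgE cell in each WT mouse and 45.0% of its UMIs in a single cell. Igkv3-12 came from 8 cells, 7 of them WT, with 39.1% of its UMIs in 1. Ighg2b stood at 0, 214 and 1441 CPM against 4703 and 10515 CPM and was not called. With immunoglobulin genes left out, edgeR called 0 of 5276 genes (0.0%), with 294 at an unadjusted p under 0.05. In the fit with immunoglobulin genes in, DESeq2 called 13, and it gave no adjusted p for 5170 of the 5648 genes. Ig-rich gated cells gave 10 of 3376 genes (0.296%) and Ig-rich cells without the markers 3 of 4006 (0.0749%), all lower. Leaving out p19-/- 3, WT 1 or WT 2 moved the count of called genes from 8 to 25, 22 and 28. The genes called without p19-/- 3 included genes other than immunoglobulin genes, among them Ssr4. So did those called with sex as a covariate, among them Ssr4 and Irf4. Counts simulated at the depth of these libraries gave 85.4% recovery of 4-fold changes and 15.9% of 2-fold changes among 5192 genes, with 7 false calls. Differences near 2-fold were mostly not detectable even there. The simulation used the general trend of spread around 1 common profile. It left out spread particular to single genes and the uneven load between mice, so it does not give the recovery in the real data.

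The genes closest to the threshold are given as not passing. Ly6c2 stood at 5.46, 0 and 44.3 CPM in p19-/- and 283 and 126 CPM in WT, a log2 difference of -3.20 (SE 0.759, edgeR adjusted p = 0.645), and at -2.88 (adjusted p = 0.104) in Ig-rich cells. The groups did not overlap in gated cells, a pattern that 9.74% of 5574 non-immunoglobulin genes shared, and 9 of 55 p19-/- and 32 of 95 WT gated cells carried a UMI. In Ig-rich cells p19-/- 1 was at 61.1 CPM, which is 1 UMI. Selenom, an ER selenoprotein, was at 10.9, 19 and 42.1 CPM against 114 and 89.5 CPM (-1.90, SE 0.450, adjusted p = 0.645), with the linker histone H1f0 at -2.20 and Phyh, a peroxisomal hydroxylase, at -1.0. Higher in p19-/- were Zmynd19 at 1.63, Mcmbp, a binding partner of the replicative helicase, at 1.17 and Dnaja1, an Hsp70 cochaperone, at 1.06 (edgeR adjusted p = 0.697). Slpi, a gene of the gate, is given above by mouse and is not tested here.

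By group, none of the members outside the immunoglobulin genes was called in the main fit. The counts below are therefore signs of estimates, beside medians of 0.02 over all genes in gated cells and -0.09 in Ig-rich cells. For 10 of 11 heat shock genes the estimate was above 0 in gated cells. At an unadjusted edgeR p under 0.05 stood 6 of the 11, beside 304 of all 5648 genes tested. The median log2 difference of the heat shock genes was 0.76 in gated cells, 0.56 in Ig-rich cells and 0.68 in cells chosen without the markers. Hspa8, the constitutive Hsp70, stood at 3028, 2195 and 2295 CPM in p19-/- and 1076 and 1549 CPM in WT. Its GC B-like levels were 2943, 2576 and 2631 CPM against 1358 and 1726 CPM, so the same order of genotypes stood in both classes. Dnaja1 stood at 638, 367 and 457 CPM against 217 and 226 CPM, and Hsp90aa1, the inducible Hsp90, at 1451, 1314 and 1108 CPM against 692 and 856 CPM. Among genes other than immunoglobulin genes, 12.9% of 5574 had all p19-/- mice above all WT mice in gated cells. In Ig-rich cells 8.04% did so and 9.72% had all p19-/- mice below.

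For ER chaperones and ER to Golgi genes the signs of the estimates differed between all gated cells and Ig-rich cells, and translocon genes were mostly below 0 in both. Ig-rich cells number 4 each in p19-/- 1 and p19-/- 2. The estimate was below 0 for 20 of 22 ER chaperones (median -0.47), 17 of 19 translocon genes (median -0.48) and 19 of 19 ER to Golgi genes (median -0.37) in gated cells. In Ig-rich cells 13 of 22 ER chaperones were above 0 (median 0.18), 13 of 19 translocon genes below (median -0.16) and the ER to Golgi genes split into 10 above and 9 below. Glycolysis went from 10 of 10 above 0 (median 0.57) to 4 above and 6 below. Of 12 plasma cell transcription factors, 8 were below 0 in both sets (medians -0.40 and -0.13), with Prdm1 at 38.2, 42.9 and 115 CPM against 107 and 125 CPM in gated cells and without a difference of groups in the Ig-rich cells given above.

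Whether genotype acted differently on gated and GC B-like cells was tested as an interaction with the mouse as a block. edgeR called 8 of 9497 genes (0.0842%), all lower in the gated cells of p19-/- mice and all immunoglobulin genes, with Igkv3-12 at -13.1 (adjusted p = 0.000253), Ighe at -5.26 (SE 0.414, adjusted p = 0.00335) and Igkv3-1 at -7.35 (adjusted p = 0.0483). With immunoglobulin genes left out it called 0 of 9318 (0.0%), with 500 at an unadjusted p under 0.05. With Ig-rich cells in place of all gated cells it called 69 genes (0.751%), 22 higher (0.239%) and 47 lower (0.511%), on the 4 cells each of p19-/- 1 and p19-/- 2. With Ig-rich cells chosen without the markers it called 11 of 9313 (0.118%), 2 higher (0.0215%) and 9 lower (0.0966%). In GC B-like cells alone, genotype called 2 of 10532 genes (0.019%), 1 in each direction (0.00949%).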

How the data were processed

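Per the labels' protocols, cells were captured with a 10x 5' VDJ kit, and the tools named are Cell Ranger 3.0.2 and STAR with build mm10, per the submitters' processing notes. The deposited values are UMI counts per gene and cell and, per the file headers, contig tables with UMI counts and the authors' clonotype numbers.

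The members, gene lists and tests were chosen with earlier results of these data known. UMIs were summed per mouse and class and CPM taken over non-immunoglobulin UMIs, and a log2 ratio to GC B-like cells used a pseudocount of 1 CPM. Main tests were edgeR 4.0.16 (R 4.3.3) with TMM scaling and filterByExpr, checked on simulated data, and exact permutation tests over mice (scipy 1.17.1, python 3.11.15). The mouse is the replicate. No label says how the mice relate, so p-values measure only the spread between these samples. DESeq2 1.42.0 was an alternative. Intervals (Clopper-Pearson, 95%) and floors (3 counts) cover counting error only. Genes named were gate and list members, genes called with a mean of at least 10 CPM, and, where fewer than 10 passed, up to 5 per direction with the lowest unadjusted p. In the comparison with GC B-like cells they were the 25 highest and 15 lowest genes.

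Scrublet (scanpy 1.11.5) with its automatic threshold marked 0.299% of cells, so the top-scoring cells up to a rate of 0.8% per 1000 cells were called instead. These included 2 gated cells, kept in the main results and left out in an alternative. Alternatives on cells with at least 10% immunoglobulin UMIs, gated or chosen without the markers, were added after the data were seen. Some genes of these lists are not reported here.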

Additional observations from a re-analysis of the deposited data

Results flagged for a closer look

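For 8 genes, all of them immunoglobulin genes, the difference between gated cells and GC B-like cells differed between genotypes in the interaction test of edgeR (9497 genes tested). They were Igkv3-12, Igkv3-1, Igkv4-57, Ighv1-9, Ighv1-58, Ighv1-81, Ighv10-1 and Ighe, each lower in gated p19-/- cells. In gated cells Igkv3-12 came from 8 cells, 1 of which held 39.1% of its UMIs.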

How the results depend on the processing

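The gate holds 150 cells of 5 mice, with 9 and 10 in p19-/- 2 and p19-/- 1, so 1 cell can decide a share, and Ig-rich cells there number 4 each. Genes called by genotype numbered 8 in edgeR. They were 0 with at least 4 of 5 markers (112 at an unadjusted p under 0.05) and 0 with immunoglobulin genes left out, 193 with no filter, 13 with DESeq2, 60 with sex as a covariate and 3 in Ig-rich cells chosen without the markers. The replicate block gave 233. Those called with sex or with the block included genes other than immunoglobulin genes, among them Ssr4 and Irf4. Sex and the block both leave p19-/- 3 without weight, since it is the only male and the only number 3. No label says what the shared number means. Deviations of same-numbered mice from their group means correlated at 0.159 and 0.0498. With 2 WT mice these deviations mirror each other, so the values cannot decide whether same-numbered mice share more than a number. Genes in the interaction, also 8, were 56 with at least 4 markers, 0 without immunoglobulin genes, 63 with no filter, 15 with DESeq2 and 69 in Ig-rich cells. Genes of IgG against IgM, 12, were 4 without immunoglobulin genes, 144 with no filter, 19 with DESeq2 and 54 in Ig-rich cells. DESeq2 gave no adjusted p for 5170 of 5648 genes by genotype, 8653 of 9497 in the interaction and 2492 of 3214 for IgG against IgM. Its counts are therefore corrected over fewer genes than those of edgeR. Leaving out 1 mouse gave 7 to 28 genes by genotype, 8 to 35 in the interaction (24 without p19-/- 3, 35 without WT 1, 32 without WT 2) and 24 to 64 for IgG against IgM (24 without p19-/- 3, 38 without WT 1, 64 without WT 2).

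The choice of cells turned several shares. Chosen by load without the markers, p19-/- minus WT was 1.43 points for IgG2b, -2.18 for IgG3, 3.05 for IgA, 3.39 for lambda and 1.23 for immunoglobulin load (a set itself chosen by load), Ighv1-81 was at a log2 difference of 0.57, and gated minus GC B-like was -7.16 for IgG1. In Ig-rich gated cells IgG3 by genotype was -4.00, and with at least 4 markers IgM minus GC B-like was -4.64. With heavy-chain lineages in place of the authors' clonotypes, p19-/- minus WT was -7.24 for expanded clones and -10.6 for clones shared with GC B-like cells, against 5.76 and 5.90. The cause was not tested. No exact permutation test of a share over 5 mice could pass 0.05.

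Leaving out each mouse, p19-/- minus WT ranged over these points: share of cells -1.97 to -0.539, of B lineage cells -5.42 to -0.821, IgM 7.10 to 17.6, IgG1 9.88 to 18.5, IgG2b -18.9 to -3.69, IgG2c -14.7 to -1.97, IgG3 -0.994 to 4.72, IgA -11.6 to -2.04, lambda -1.11 to 0.926, cycling 15.4 to 25.9, immunoglobulin load -34.5 to -22.9, expanded clones -1.18 to 15.5 and clones shared with GC B-like cells 0.342 to 11.5. Gated minus GC B-like ranged over IgM 4.66 to 10.4, IgG1 6.87 to 7.93 (-0.56 in cells chosen without the markers and without p19-/- 1), IgG2b -9.05 to -3.53, IgG2c -17.5 to -10.7, IgG3 2.88 to 4.74, IgA 0.292 to 3.19 and cycling -26.2 to -17.9. Of the values of shares and counts under alternatives, 206 stayed, 17 reversed and 25 moved, and counts of genes without doublet calls and with RLE scaling stayed within 1.5 times.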

Other observations

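Of 146 gated CDR3s, 6 lay within 15% of the CDR3 of a B cell with the same V and J genes in another mouse, and 0 were identical. All 6 were IgM cells with IGHV1-47, IGHJ4 and a CDR3 of 45 bases, 2 in p19-/- 2 and 4 in WT 2, and their barcodes were not shared between libraries. The sequences of an Ig-rich cell of each mouse follow, with capitals at the bases that differ from the nearest cell of the other mouse.
p19-/- 2, 43.8% immunoglobulin UMIs: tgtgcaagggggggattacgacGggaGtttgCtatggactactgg
Nearest cell in WT 2, 3 differences: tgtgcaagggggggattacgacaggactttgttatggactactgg
WT 2, 58.8% immunoglobulin UMIs: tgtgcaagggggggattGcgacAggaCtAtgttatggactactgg
Nearest cell in p19-/- 2, 4 differences: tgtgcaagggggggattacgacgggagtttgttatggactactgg
How the 2 mice relate by litter or capture is not given in the sources used here.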
